A study of Homo sapiens with 9 samples.

Results

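RNA of MATR3 knockout (KO) HAP1 clone 1 was compared with RNA of wild-type (WT) HAP1 clone 1, using 5 of the 9 libraries of the series: KO clone 1 replicates 1 and 2 (KO1, n = 2) and WT clone 1 replicates 1 to 3 (WT1, n = 3). The libraries were chosen by their labels alone and none of the WT1 libraries serves as a control for the other knockout clone. A second pair of clones is KO clone 5 (KO5, n = 2) and WT clone 7 (WT7, n = 2). It is used below only to show where the difference of KO1 over WT1 departs from that of another pair. Such a difference is called an effect below, whatever its cause. HAP1 is a near-haploid adherent line derived from the chronic myeloid leukaemia line KBM-7, and the clones were bought from a supplier, the WT clones as separate batches. Each group is therefore 1 clone, and the genotype and the clone cannot be told apart within the comparison. Nothing in the labels ties the replicates to separate cultures, and the p-values therefore rest on a spread between libraries that may be technical. The study's title concerns the DNA sensing route through cGAS and STING in cells without matrin 3.

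MATR3 encodes matrin 3, an abundant protein of the nuclear matrix that binds RNA and DNA. It is known as a regulator of splicing that represses exons near its intronic binding sites, including exons derived from LINE elements, and mutations in it cause a form of motor neuron disease. Cytosolic DNA sensed by cGAS leads through STING to type I interferon and NF-kB signalling, and interferon-stimulated genes are the usual transcript readout of that route. Repeat subfamilies were counted beside genes, since transcripts of endogenous retroviruses and other repeats can make up a sizeable part of total RNA.

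Total RNA was depleted of ribosomal RNA and made into directional libraries. In units of 1e+06 counts, the KO1 libraries held 17.2 and 34.4 and the WT1 libraries 16.3, 21.1 and 34.2, over 21003 genes and 1111 repeat subfamilies. WT1 replicate 1 stood apart from the other WT1 libraries. Of its counts 14.03% fell on repeats, against 10.2% and 10.5% in WT1 replicates 2 and 3, and 8.97% and 9.05% in KO1. The nuclear non-coding RNA NEAT1 was at 656.3 counts per 1e+06 counts (CPM) in it, against 218 and 205 CPM in WT1 replicates 2 and 3, and 287 and 286 CPM in KO1. In a principal component analysis of the 5 libraries, the first component (72.1% of the variance) separated KO1 from WT1 and the second (17% of the variance) separated WT1 replicate 1 from the other WT1 libraries. More features passed the test without this library, and the counts of calls in gene lists are given without it as well. Those counts stand against 27.2% of all genes called in that fit (13.2% higher and 14% lower). Fits that keep a lone KO1 library called far fewer of all genes than the fit of all 5 libraries. Calls of list members lost in those fits are to be read beside that general loss.

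The line was checked against markers of the cell types it could resemble. Of 16 haematopoietic markers 7 were in the table, namely MYB, LMO2, KIT, RUNX1, TAL1, GATA2 and CEBPA. PTPRC, CD34 and GATA1 were among those absent. The 7 summed to 159.3 and 153.4 CPM in KO1, against 148.3, 146.1 and 143.2 CPM in WT1. This sum hides members that moved apart. KIT and RUNX1 were called lower in KO1, and MYB, on the stretch of chromosome 6 described below, was called higher. The 5 epithelial markers in the table summed to 131 and 126.5 CPM in KO1, against 38.7, 57.7 and 50.1 CPM in WT1. The 3 fibroblast markers in the table summed to 82.7 and 80.1 CPM in KO1, against 71.5, 90.5 and 95.4 CPM in WT1. This sum too hides members that moved apart. COL1A1 was called higher in KO1 (edgeR adjusted p = 0.0322) and PDGFRA lower (edgeR adjusted p = 0.0321). Of 6 endothelial markers 0 were in the table. Every listed marker that was in the table had counts in each of these groups. The part of the higher epithelial sum in other results was not tested. In bulk RNA, fewer cells of a type and less RNA per cell cannot be told apart.

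MATR3 RNA itself, on chromosome 5 (139293674 to 139331677, plus strand, GRCh38), was at 40.8 and 44.5 CPM in KO1, against 224, 212 and 214 CPM in WT1. The groups were far apart, and the RNA was still present in both KO1 libraries. The log2 difference was -2.34 (SE 0.08, edgeR adjusted p = 8e-06), and it stayed between -2.41 and -2.28 in all alternatives tried. A second annotated entry over the same exons gave -2.14 (SE 0.08), and reads that fall on both entries are uncertain. SNHG4, a small nucleolar RNA host gene that overlaps this second entry, was at 61.2 and 58.9 CPM in KO1 and 81.0, 68.8 and 59.6 CPM in WT1, and it did not pass the test (-0.22, SE 0.12, edgeR adjusted p = 0.268).

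Of 18193 genes tested, 2839 passed an adjusted p of 0.05 (15.6%), 1242 of them higher (6.83%) and 1597 lower (8.78%) in KO1. Changes of at least 2-fold were found for 385 higher and 761 lower genes, so the larger changes leaned towards loss in this pair. The median log2 difference over all genes was 0.01. In KO5 against WT7 the lean was the reverse, with 598 genes higher and 458 lower by at least 2-fold. The KO1 and WT1 libraries did not overlap for 50.7% of all genes tested, with KO1 above WT1 for 26.6% and below it for 24%. Without WT1 replicate 1, 5083 of 18692 genes passed (27.2%; 13.2% higher and 14% lower), and they included 2828 of the 2839, all with the same sign; the other 11 were then too low to be tested. Without KO1 replicate 1 or replicate 2, which leaves a lone KO1 library, 754 and 626 genes passed.

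The 10 largest rises included neuronal, adhesion and cytoskeletal genes. NEFL, which encodes the light chain of neurofilaments, was at 38.7 and 44.9 CPM in KO1, against 0.801, 0.957 and 1.06 CPM in WT1 (log2 difference 5.43, SE 0.14, edgeR adjusted p = 3.36e-06). FAT3, an atypical cadherin of very large size, was at 11.2 and 12.4 CPM in KO1, against 0.370, 0.0957 and 0.177 CPM in WT1 (5.86, SE 0.29, edgeR adjusted p = 2.95e-05). TPM2, the beta chain of the actin-binding protein tropomyosin, was at 129 and 128 CPM in KO1, against 7.02, 10.4 and 10.5 CPM in WT1 (3.76, SE 0.15, edgeR adjusted p = 1.06e-05). These 3 genes were nearly silent or low in every WT1 library and clearly transcribed in both KO1 libraries. VCAM1, an adhesion molecule that leukocytes bind on activated endothelium, was at 14.6 and 16.3 CPM in KO1 and 1.23, 0.479 and 0.501 CPM in WT1 (4.50, SE 0.29). POF1B, which encodes an actin-binding protein of epithelial junctions, was at 36.5 and 45.8 CPM in KO1 and 0.986, 2.11 and 2.24 CPM in WT1 (4.46, SE 0.23). The rest of the 10 largest rises were ATCAY, which encodes the neuronal protein caytaxin (5.14), CALHM5 of the calcium homeostasis modulator family (4.43), and GRIN1, the obligatory subunit of NMDA glutamate receptors (4.21). They ended with the long non-coding RNA HOTAIR (3.57) and FAM19A5, which encodes a secreted protein of the brain (3.57). GRIN1, the lowest of the 10 at 2.27 and 2.69 CPM in KO1, lost its call without KO1 replicate 2 (3.70 to 5.41 over all alternatives). Unnamed antisense genes share exonic bases with NEFL and HOTAIR, and TRAPPC3L shares some with CALHM5. How the counting treated strand is not given, so reads in such overlaps are uncertain. The same holds for CCND2, FBN2, LAMB1, THBS2, LAMA4, KLF4, ISG15, IFI16, ICAM1, TNFAIP3, TAP1, CDH2, CDH3, TJP3, MARVELD3, LOX, ITGB8, NRP2, CDKN1A, MYB, LIN28B, ZNF676, MEIOB, IFITM1 and IFITM2, described below, which each share exonic bases with another annotated gene. The zinc finger genes, and IFITM1 and IFITM2, also have close relatives with which reads could be shared.

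**Figure D1:**
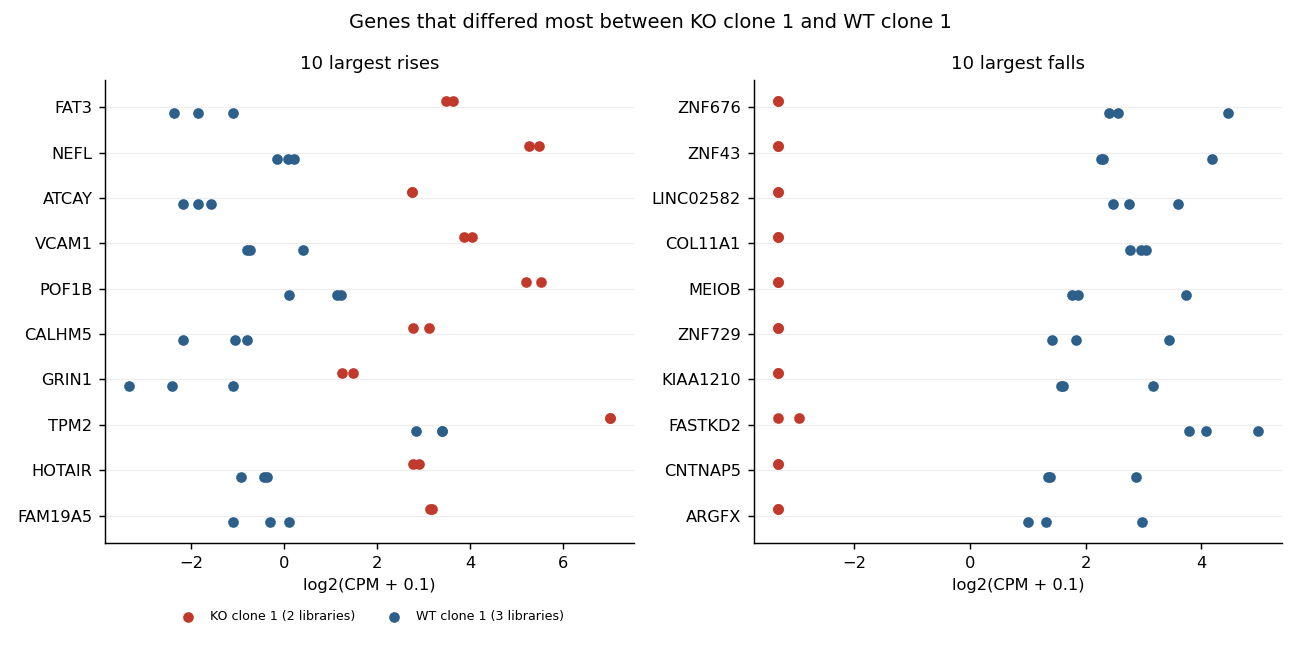
Level of the 10 genes with the largest rises (left) and the 10 with the largest falls (right) in each library, on a log2 scale of CPM plus 0.1. Red points are the 2 KO clone 1 libraries and blue points the 3 WT clone 1 libraries; in the right panel WT1 replicate 1 is the rightmost blue point for 9 of the 10 genes, the exception being COL11A1, and 9 of the genes have 0 counts in both KO1 libraries.

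The deepest falls were to 0 counts. For 9 of the 10 largest falls both KO1 libraries had 0 counts, so a fold is given as a lower bound from 3 counts pooled over the KO1 libraries, which covers counting error only. COL11A1, a chain of fibrillar collagen XI, was at 0 in KO1, against 6.71, 8.19 and 7.70 CPM in WT1, at least 130.2-fold lower (edgeR adjusted p = 4.66e-05). ZNF676, a Kruppel-type zinc finger gene on chromosome 19, was at 0 in KO1, against 21.9, 5.22 and 5.81 CPM in WT1, at least 189.9-fold lower (edgeR adjusted p = 0.00823), or at least 95.3-fold without WT1 replicate 1. In all 3 WT1 libraries COL11A1 was at a like level, whereas ZNF676 was far highest in WT1 replicate 1. The same uneven pattern held for the zinc finger genes ZNF43 (at least 159.5-fold) and ZNF729 (at least 96.9-fold), the meiotic recombination gene MEIOB (at least 116-fold), the homeobox gene ARGFX (at least 69.5-fold) and KIAA1210 (at least 84.85-fold). It also held for CNTNAP5, a contactin-associated neuronal adhesion gene (at least 70.4-fold). These bounds, computed without WT1 replicate 1, were 82.8-fold for ZNF43, 52.2-fold for ZNF729, 59.2-fold for MEIOB, 37.2-fold for ARGFX, 50.6-fold for KIAA1210 and 42.8-fold for CNTNAP5, while that of COL11A1 was 137.3-fold. LINC02582, a long non-coding RNA, was at least 139-fold lower, with 12.1, 6.65 and 5.46 CPM in WT1. FASTKD2, which encodes a mitochondrial RNA-binding protein, was the only one of the 10 with a count in KO1, at 0 and 0.0289 CPM in KO1, against 31.7, 13.8 and 16.8 CPM in WT1 (edgeR adjusted p = 0.000217). That is 1 count in KO1 and 1371 in WT1, a ratio of 0.000999 for KO1 over WT1 with an exact 95% counting interval of 2.53e-05 to 0.00558. ZNF676, ZNF43 and MEIOB lost their calls with robust dispersion estimates and without either KO1 library (edgeR adjusted p up to 0.118). ZNF729 and ARGFX lost theirs without either KO1 library, and KIAA1210 and CNTNAP5 without KO1 replicate 2 (up to 0.121).

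In all, 64 called genes had 0 counts in both KO1 libraries and 3 had 0 counts in all WT1 libraries. These were chosen by their values, so their counts are a description. A gene at 0 in KO1 passed the filter only through its WT1 level, and 0 is easier to reach in the smaller KO1 group. Such a choice favours genes that are high in WT1, also beside WT7. Of the 64, 9 are zinc finger genes named ZNF, 48 also had 0 counts in both KO5 libraries, and 37 were in WT7 at less than 0.5 of their WT1 mean. WT1 replicate 1 held the highest level for 49 of them, and for 30 it exceeded 2 times both other WT1 libraries. Their promoters had fewer CpG at the median, a difference that was not tested, and the sets were not matched in level. Among the 42 with an entry in the RefSeq promoter table (GRCh38.p14, 250 bases before to 50 after the start), the median was 12 CpG per promoter, against 26 over the 11648 matched genes tested, 24 over those called lower and 18 over those called lower by at least 2-fold.

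The most abundant genes that rose at least 2-fold were housekeeping and signalling genes from the long arm of chromosome 6. TCP1, a subunit of the chaperonin that folds actin and tubulin, was at 998 and 940.0 CPM in KO1, against 493, 426 and 429 CPM in WT1 (1.11, SE 0.09, edgeR adjusted p = 0.000264). RPS12, a protein of the small ribosomal subunit, was at 846 and 763 CPM in KO1, against 415, 359.9 and 383 CPM in WT1 (1.06, SE 0.09). HDAC2, a histone deacetylase, was at 349 and 390.3 CPM in KO1, against 169.5, 179 and 175 CPM in WT1 (1.08, SE 0.08). AKAP12, a scaffold of protein kinase A (1.32, SE 0.12), and MARCKS, a substrate of protein kinase C (1.10, SE 0.09), completed the 5, and all 5 lie on chromosome 6 beyond 100 Mb. TCP1 shares exonic bases with the antisense gene ACAT2.

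That stretch of chromosome 6 stood out in a count by position. Of 294 genes tested there, 194 were called higher (66%) and 12 lower, with a median log2 difference of 0.83. Elsewhere 1048 of 17899 genes were called higher (5.86%) and the median was 0.01, so 15.6% of all rises came from this stretch. The boundary was set after the positions of the calls were seen, and no test was made of it. In KO5 against WT7 the same genes had a median of 0.90. Chromosome 6 genes there include members of the lists below, namely SOD2, TNFAIP3, LAMA4, THBS2, SESN1, SYNE1, QKI, MYB and LIN28B, and the counts of their lists include them. On chromosome 1 beyond 160 Mb, a boundary also set after the calls were seen, 103 of 484 genes (21.3%) were lower and the median was -0.29, against -0.15 in KO5 over WT7. No measurement of the clones' DNA was used here.

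**Figure D2:**
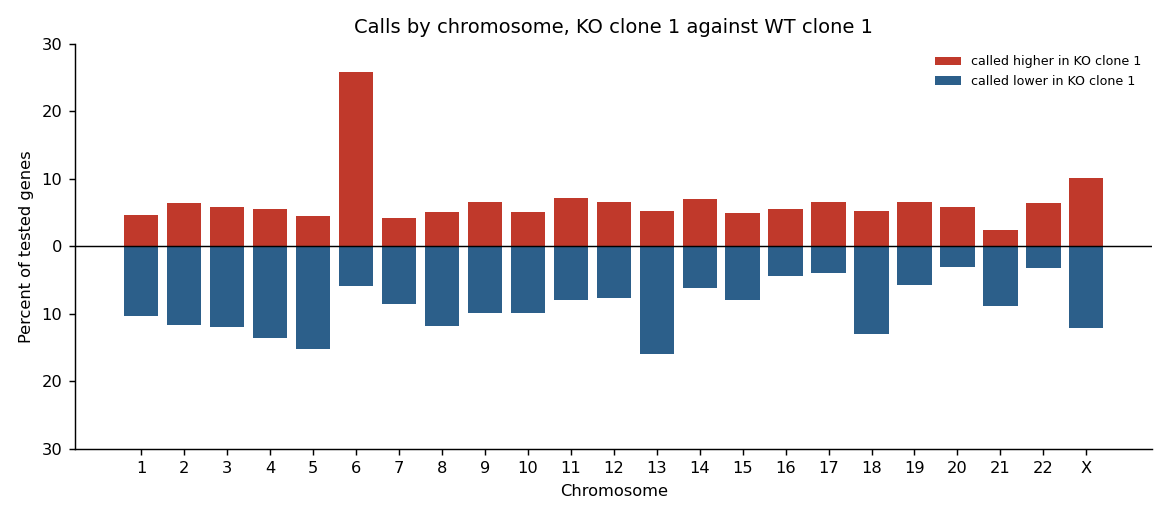
Percent of the tested genes of each chromosome that were called higher (red, above 0) or lower (blue, below 0) in KO clone 1 against WT clone 1. Chromosome 6 has 25.8% of its 920 genes called higher, against 6.83% over all genes.

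Among abundant genes that fell at least 2-fold, CCND2, which encodes the G1 cyclin D2, was at 12.5 and 13.7 CPM in KO1, against 112, 89.2 and 84.0 CPM in WT1 (-2.85, SE 0.14, edgeR adjusted p = 3.03e-05). FBN2, the microfibril protein fibrillin 2, was at 79.2 and 73.4 CPM in KO1, against 254, 198 and 199 CPM in WT1 (-1.51, SE 0.12). PODXL, the sialomucin podocalyxin, was at 47.6 and 50.4 CPM in KO1, against 101, 128 and 126 CPM in WT1 (-1.27, SE 0.12). KO1 lay below every WT1 library for all 3. IMPAD1, a Golgi nucleotide phosphatase, fell by 1.59 on the log2 scale (SE 0.12).

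Interferon-stimulated genes changed in part. Of 30 tested members of a list of such genes, 10 were called higher (33.3% of members against 6.83% of all genes) and 1 lower, with a median log2 difference of 0.25 against 0.01. Promoter sequences are shown for 2 members that rose, 1 that did not pass the test and 1 that fell, to set the response element beside the response. Capitals mark matches to GAAANNGAAA, the core of the interferon-stimulated response element, searched on both strands (as TTTCNNTTTC on the other). Sequences are RefSeq, GRCh38.p14, plus strand, 5′ to 3′, at chr1:1013339-1013438 for ISG15, chr11:313940-314039 for IFITM1, chr10:89392462-89392561 for IFIT1 and chr14:94110583-94110682 for IFI27.
ISG15: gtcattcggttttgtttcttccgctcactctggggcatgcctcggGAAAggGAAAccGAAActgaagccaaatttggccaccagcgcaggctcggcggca
IFITM1: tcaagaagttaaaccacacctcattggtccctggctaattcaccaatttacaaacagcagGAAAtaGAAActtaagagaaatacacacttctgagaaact
IFIT1: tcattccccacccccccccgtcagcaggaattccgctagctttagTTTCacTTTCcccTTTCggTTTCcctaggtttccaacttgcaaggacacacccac
IFI27: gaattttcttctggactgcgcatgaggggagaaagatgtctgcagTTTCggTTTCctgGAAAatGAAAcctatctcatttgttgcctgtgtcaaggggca

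In ISG15 the 2 matches share their middle GAAA, and in IFIT1 and IFI27 the 2 matches are separate. The motif was in 15 of the 24 listed genes with a promoter entry (62.5%), against 2.72% of the 11648 matched genes tested. It was in 6 of 8 members that rose, and also in IFI27 and in members that did not pass, such as IFIT1, IFIT3 and IFIT5, so its presence did not sort the genes that rose from the others. A match is a description of these letters and not of a bound site.

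ISG15, the ubiquitin-like modifier whose promoter carries the overlapping matches, was at 15.7 and 15.5 CPM in KO1, against 4.31, 4.74 and 4.99 CPM in WT1 (1.72, SE 0.12, edgeR adjusted p = 0.000103). IFITM1, which blocks viral entry at membranes, was at 10.6 and 11.9 CPM in KO1, against 1.36, 2.11 and 1.98 CPM in WT1 (2.61, SE 0.19, edgeR adjusted p = 0.000128). IFITM2, its neighbour and relative, was at 5.87 and 5.43 CPM in KO1, against 0.862, 1.01 and 0.973 CPM in WT1 (2.55, SE 0.19). In these 3 genes the groups were well separated, at levels that remained modest in KO1. OAS2, which makes the oligoadenylates that activate RNase L, was at 6.10 and 6.21 CPM in KO1, against 1.54, 1.92 and 2.30 CPM in WT1 (1.65, SE 0.20, edgeR adjusted p = 0.00144). The other members that rose were MX1, an antiviral GTPase (2.91), BST2 or tetherin (0.68), PARP9 (0.91), PARP14 (0.44), LGALS3BP (0.38) and UBE2L6, the conjugating enzyme for ISG15 (0.47). IFI27, a mitochondrial protein strongly induced by interferon in other settings, was the member that fell, at 0.755 and 0.866 CPM in KO1, against 2.71, 2.35 and 2.09 CPM in WT1 (-1.52, SE 0.26, edgeR adjusted p = 0.00693). IFIT1, which binds viral RNA ends, was at 3.60 and 3.23 CPM in KO1, against 3.02, 4.02 and 4.28 CPM in WT1 (-0.17, edgeR adjusted p = 0.616). MX1, BST2, PARP9, PARP14, LGALS3BP, UBE2L6, IFI27 and IFIT1 were picked for mention after their values were seen. The fit without WT1 replicate 1 called 13 members higher and 1 lower, and without KO1 replicate 1 or replicate 2, 5 were called higher in each case and the call of IFI27 was lost.

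The sensors upstream gave few calls with all 5 libraries. Of 13 RNA sensing genes 0 passed by edgeR, with 5 at an unadjusted p below 0.05 and 0 called by DESeq2, at a median of 0.17. Leaving out WT1 replicate 1, 3 of them were called higher, in a fit that called 13.2% of all genes higher, among them DDX58 (0.74, edgeR adjusted p = 0.00065) and EIF2AK2, which encodes the double-stranded RNA-activated kinase PKR (0.27, edgeR adjusted p = 0.00818). With all libraries, DDX58, which encodes the RNA sensor RIG-I, was at 12.4 and 10.7 CPM in KO1, against 9.67, 6.51 and 7.08 CPM in WT1 (0.57, SE 0.18, edgeR adjusted p = 0.0676). IFIH1, which encodes MDA5, had 2.21 and 1.79 CPM in KO1, against 0.739, 1.44 and 1.15 CPM in WT1 (0.80, SE 0.30, edgeR adjusted p = 0.111). Of 22 genes of the cGAS-STING pathway 2 were called higher and 1 lower (13.6% called, near the 15.6% of all genes), with a median of 0.08. In the fit without WT1 replicate 1, which called 27.2% of all genes, 5 were higher and 2 lower. IFI16, a nuclear DNA sensor, was at 0.0581 and 0.0289 CPM in KO1, against 15.6, 4.79 and 4.37 CPM in WT1 (edgeR adjusted p = 0.00349). That is 2 counts in KO1 and 502 in WT1, a ratio of 0.00546 for KO1 over WT1 with an exact 95% counting interval of 0.000659 to 0.0198. WT1 replicate 1 was the highest library, and the call was lost without either KO1 library (edgeR adjusted p up to 0.103). BANF1, a chromatin protein that shields nuclear DNA from cGAS, was at 163 and 154 CPM in KO1, against 121, 131 and 127 CPM in WT1 (0.33, SE 0.07), and TRIM56, a ubiquitin ligase, rose by 0.40 (SE 0.09). The calls of BANF1 and TRIM56 were lost without KO1 replicate 1, KO1 replicate 2 or WT1 replicate 3 (edgeR adjusted p up to 0.194).

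NF-kB subunits and targets gave 6 rises among 18 tested (33.3% of members against 6.83% of all genes), with a median of 0.20. VCAM1, described above, and ICAM1, its relative on activated endothelium, are adhesion molecules of this list. ICAM1 was at 2.85 and 3.93 CPM in KO1, against 0.801, 0.957 and 1.42 CPM in WT1 (1.64, SE 0.29, edgeR adjusted p = 0.0082). SOD2, the mitochondrial superoxide dismutase, was at 129.6 and 133 CPM in KO1, against 78.8, 73.4 and 70.1 CPM in WT1 (0.83, SE 0.07), and TNFAIP3, the feedback inhibitor A20, rose by 0.99 (SE 0.20). SOD2 and TNFAIP3 lie on the stretch of chromosome 6 described above, where 66% of genes were called higher, so 4 of the 6 rises lie elsewhere. There were 3 and 2 rises without KO1 replicate 1 and replicate 2, and 6 without WT1 replicate 1. ICAM1 lost its call without KO1 replicate 2 and TNFAIP3 without either KO1 library. Of 18 genes of MHC class I antigen presentation, TAP1, a subunit of the peptide transporter (0.53, SE 0.10, edgeR adjusted p = 0.0124), and HLA-E, a ligand of natural killer cell receptors (0.38, SE 0.08), rose, and both lost their calls without either KO1 library. These 2 calls are 11.1% of the list, near the 15.6% of all genes. Without WT1 replicate 1, 4 were higher and 2 lower, in a fit that called 27.2% of all genes.

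Of 15 epithelial genes tested, 7 were called higher (46.7% of members against 6.83% of all genes) and 1 lower, with a median of 0.63. There were 8 higher without WT1 replicate 1, and 2 and 3 without KO1 replicate 1 and replicate 2. KRT8, a keratin of simple epithelia, was at 70.4 and 68.0 CPM in KO1, against 5.36, 13.98 and 11.9 CPM in WT1 (2.70, SE 0.28, edgeR adjusted p = 0.000695). CDH3, which encodes P-cadherin, was at 19.98 and 18.9 CPM in KO1, against 2.65, 2.73 and 3.66 CPM in WT1 (2.66, SE 0.15, edgeR adjusted p = 4.98e-05). Both genes were higher in each KO1 library than in any WT1 library. The tight junction genes TJP3 (1.84, SE 0.26) and MARVELD3 (1.38, SE 0.21) rose as well. CDH1, which encodes E-cadherin, reached only 1.05 and 0.693 CPM in KO1, against 0.123, 0.144 and 0.0295 CPM in WT1 (3.21, SE 0.56). OCLN, which encodes the tight junction protein occludin, was the member that fell (-0.78, SE 0.14). CDH1 and OCLN were picked for mention after their values were seen. TJP3 lost its call without KO1 replicate 1 and MARVELD3 without either KO1 library (edgeR adjusted p up to 0.0678), and KRT8 shares exonic bases with an annotated antisense transcript of KRT18. Of 16 mesenchymal genes 4 fell (25% against 8.78% of all genes) and 1, TPM2, rose. Leaving out WT1 replicate 1, 6 fell and 4 rose, and without KO1 replicate 1 or replicate 2, 1 fell in each case. CDH2, which encodes N-cadherin, was at 53.8 and 55.8 CPM in KO1, against 80.8, 82.6 and 82.0 CPM in WT1 (-0.58, SE 0.07, edgeR adjusted p = 0.00126), and PDGFRA, a growth factor receptor, fell by 0.44 (SE 0.11), a call lost without any of KO1 replicate 1, KO1 replicate 2, WT1 replicate 2 and WT1 replicate 3 (edgeR adjusted p up to 0.251).

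Several matrix genes fell strongly. Of 20 laminins, thrombospondins and other matrix genes, 8 fell (40% of members against 8.78% of all genes) and 2 rose, with a median of -0.45. There were 12 falls without WT1 replicate 1, and 5 and 4 without KO1 replicate 1 and replicate 2. LAMB1, a laminin beta chain of basement membranes, was at 11.04 and 10.9 CPM in KO1, against 62.8, 81.1 and 79.6 CPM in WT1 (-2.77, SE 0.13, edgeR adjusted p = 2.73e-05). THBS2, a matricellular thrombospondin, was at 4.47 and 4.48 CPM in KO1, against 53.5, 44.9 and 45.8 CPM in WT1 (-3.42, SE 0.12, edgeR adjusted p = 8e-06). LAMA4, a laminin alpha chain, went the other way, at 21.2 and 20.6 CPM in KO1, against 7.02, 6.94 and 6.76 CPM in WT1 (1.60, SE 0.10). THBS2 and LAMA4 both lie on the stretch of chromosome 6 where most genes were higher, so THBS2 fell against its surroundings. Of 22 collagens and their modifying enzymes 5 fell and 5 rose, 22.7% of members each way, against 8.78% and 6.83% of all genes. Only 2 fell without KO1 replicate 1 or replicate 2, and the 5 rises lost their calls there. LOX, the enzyme that cross-links collagen, was at 3.19 and 4.62 CPM in KO1, against 9.73, 13.3 and 13.6 CPM in WT1 (-1.62, SE 0.21), and COL5A2, a chain of fibrillar collagen V, was at 70.5 and 64.9 CPM in KO1, against 12.5, 24.1 and 24.7 CPM in WT1 (1.70, SE 0.23). COL5A2 lost its call without either KO1 library (edgeR adjusted p up to 0.0519). Of 15 integrins 5 fell (33.3% of members) and 1 rose. One fell without KO1 replicate 1 or replicate 2, and the rise lost its call there and without WT1 replicate 2 or 3. The largest fall in the list was that of ITGB8, the beta subunit of an activator of latent TGF-beta (-1.62, SE 0.19).

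Genes of neurons moved in both directions. Of 21 tested, 6 rose, led by NEFL, ATCAY and NPTX2, a neuronal pentraxin (2.94, SE 0.22), and 8 fell, with a median of -0.18. These are 28.6% and 38.1% of members, against 6.83% and 8.78% of all genes. There were 3 rises without either KO1 library, and 8 rises and 11 falls without WT1 replicate 1. CNTNAP2, a neuronal adhesion gene of the same family as CNTNAP5, was at 0.871 and 1.36 CPM in KO1, against 12.6, 9.43 and 9.79 CPM in WT1 (-3.17, SE 0.24, edgeR adjusted p = 0.000143). Of 40 axon guidance genes, 14 were called lower (35% of members against 8.78% of all genes) and 2 higher, with a median of -0.23. EPHA3, an ephrin receptor, was at 1.86 and 1.30 CPM in KO1, against 22.5, 26.2 and 30.03 CPM in WT1 (-4.12, SE 0.21, edgeR adjusted p = 2.95e-05). SEMA3A, a secreted repellent, was at 0.0581 and 0 CPM in KO1, against 4.50, 5.94 and 5.34 CPM in WT1. Its 1 count in KO1 and 378 in WT1 give a ratio of 0.00362 for KO1 over WT1, with an exact 95% counting interval of 9.15e-05 to 0.0203. NRP2, a co-receptor of semaphorins, was at 0.871 and 0.837 CPM in KO1, against 9.55, 7.04 and 6.81 CPM in WT1 (-3.18, SE 0.24). SEMA3A and NRP2 were thus both low in KO1. Among other semaphorins on the list, SEMA3D, SEMA6A and SEMA6D were called lower and SEMA4C higher, all named after their values were seen. Without KO1 replicate 1 and replicate 2, 7 and 6 members of the axon guidance list were called lower, and 20 without WT1 replicate 1.

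Among signalling genes, the Wnt list of 32 gave 4 rises (12.5% against 6.83% of all genes) and 6 falls (18.8% against 8.78%). WNT3, a ligand, was at 29.1 and 29.5 CPM in KO1, against 4.62, 4.02 and 4.31 CPM in WT1 (2.76, SE 0.11, edgeR adjusted p = 1.06e-05), and the receptor gene FZD10 was at 17.5 and 16.6 CPM in KO1, against 4.19, 3.64 and 3.95 CPM in WT1 (2.12, SE 0.12). SFRP1, a secreted antagonist of Wnt ligands, was at 0.465 and 0.404 CPM in KO1, against 8.50, 10.7 and 10.8 CPM in WT1 (-4.55, SE 0.23, edgeR adjusted p = 3.04e-05). The other falls were the ligand WNT10B, the receptors FZD1 and FZD8, the co-receptor LRP6 and the transcription factor LEF1, so ligands and receptors changed in both directions. There were 7 rises and 9 falls without WT1 replicate 1, and without KO1 replicate 1 or replicate 2 there was 1 fall in each case. WNT10B, FZD1, FZD8, LRP6 and LEF1 were named after their values were seen. Of 29 genes of the TGF-beta and BMP pathway 5 fell (17.2% of members) and 2 rose (6.9%). Leaving out WT1 replicate 1, 9 fell and 4 rose, and falls dropped to 2 and 1 without KO1 replicate 1 and replicate 2 and to 3 without WT1 replicate 2 or 3. BMP7, a ligand, was at 2.03 and 2.66 CPM in KO1, against 11.9, 9.67 and 10.97 CPM in WT1 (-2.18, SE 0.18), and SMAD7, an inhibitor of the pathway, was at 21.8 and 17.6 CPM in KO1, against 8.07, 8.09 and 7.76 CPM in WT1 (1.30, SE 0.12).

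Of 22 p53 targets 7 rose (31.8% of members against 6.83% of all genes) and 1 fell, with a median of 0.13. One of the rises, SESN1, lies on the stretch of chromosome 6 described above. CDKN1A, the cell cycle inhibitor p21, was at 7.61 and 6.67 CPM in KO1, against 2.03, 3.26 and 3.13 CPM in WT1 (1.31, SE 0.21, edgeR adjusted p = 0.0056). DDB2, a DNA damage recognition protein, was at 34.5 and 33.7 CPM in KO1, against 20.3, 22.5 and 22.9 CPM in WT1 (0.64, SE 0.09). MDM2, which degrades p53 and is itself a target, fell by 0.40 (SE 0.08) and was named after its value was seen. HAP1 is known to carry a dominant-negative form of p53. Every rise lost its call without KO1 replicate 1 and likewise without KO1 replicate 2, fits in which far fewer of all genes were called. Of 38 cell cycle genes 3 rose and 2 fell (13.2% called), with CCND2 by far the largest change among them. Without WT1 replicate 1, 11 cell cycle genes rose and 4 fell, in a fit that called 13.2% of all genes higher and 14% lower.

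Pluripotency and germline genes split, with 4 rises and 4 falls among 17 (23.5% of members each way, against 6.83% and 8.78% of all genes). There were 7 falls without WT1 replicate 1, and 3 rises and 2 falls without either KO1 library. KLF4, a transcription factor of naive pluripotency, was at 1.34 and 1.59 CPM in KO1, against 64.4, 29.6 and 31.5 CPM in WT1 (-4.79, SE 0.44, edgeR adjusted p = 0.000384). DAZL, a germ cell RNA-binding protein, was at 1.16 and 1.53 CPM in KO1, against 7.64, 12.5 and 13.1 CPM in WT1 (-3.01, SE 0.29). LIN28A, which blocks let-7 microRNA processing, was at 0.581 and 0.318 CPM in KO1, against 9.30, 49.0 and 44.5 CPM in WT1 (-6.39, SE 0.92), and was picked after its values were seen. Its relative LIN28B, on the chromosome 6 stretch where 66% of genes were called higher, was at 121 and 133 CPM in KO1, against 67.2, 66.1 and 62.3 CPM in WT1 (0.96, SE 0.07). KLF4 was highest and LIN28A lowest in WT1 replicate 1, and KO1 lay below every WT1 library for both. Of 31 HOX cluster genes 4 rose and 1 fell (16.1% called, near the 15.6% of all genes). Without WT1 replicate 1, 9 rose and 3 fell, in a fit that called 13.2% of all genes higher and 14% lower. HOXC11 was at 9.99 and 9.67 CPM in KO1, against 1.54, 0.957 and 1.15 CPM in WT1 (3.03, SE 0.20), and its gene body overlaps that of the antisense RNA HOTAIR, with no exonic bases in common.

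**Figure D3:**
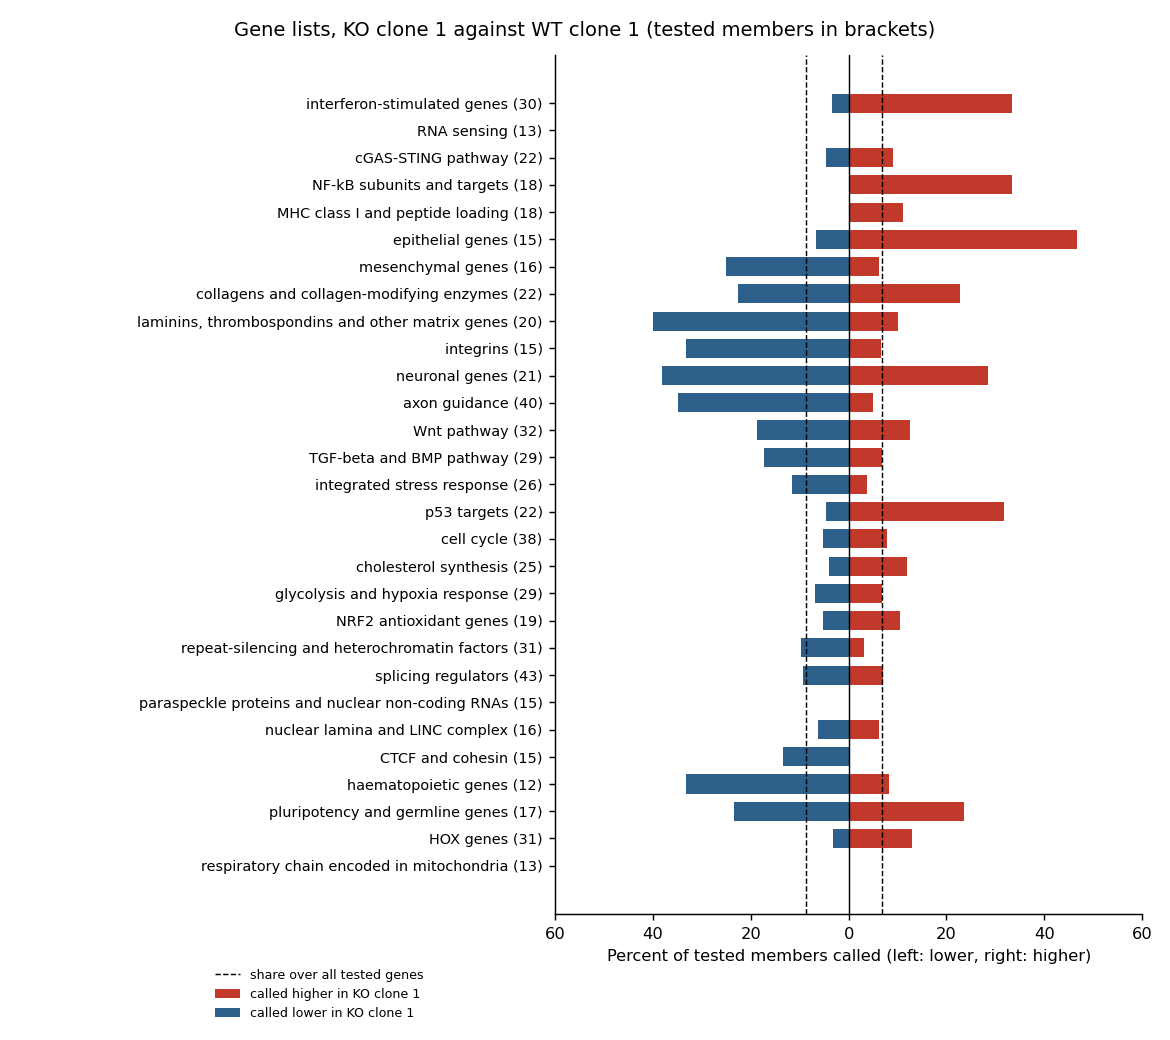
Percent of the tested members of each gene list drawn that were called higher (red, right) or lower (blue, left) in KO clone 1 against WT clone 1, with the number tested in brackets. Dashed lines mark the share over all tested genes, 6.83% higher and 8.78% lower, and a list of fibroblast markers with 2 tested members is not drawn. Among the lists drawn, epithelial genes reach furthest to the right and laminins, thrombospondins and other matrix genes furthest to the left.

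Repeat subfamilies were lower in KO1. Of 1067 tested, 139 passed (13%), 131 lower (12.3%) and 8 higher (0.75%), and 993 had a negative log2 difference, with a median of -0.44. The KO1 and WT1 libraries did not overlap for 72.9% of them, with KO1 above WT1 for 2.06% and below it for 70.9%. The size of this shift rested in part on WT1 replicate 1, without which the median was -0.25 and 425 passed, 403 lower and 22 higher, including all 139. Without KO1 replicate 1 or replicate 2, 2 subfamilies passed in each case. Counts pool all copies of a subfamily, and how reads that map to many copies were shared out is not given.

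The falls with the smallest p included the HERVH family. HERVH is an endogenous retrovirus of primates whose internal part (HERVH-int) is transcribed from LTR7-type repeats and is abundant in human pluripotent stem cells. HERVH-int was at 467 and 565 CPM in KO1, against 2459, 1520.1 and 1573 CPM in WT1 (-1.84, SE 0.23, edgeR adjusted p = 0.00153), the most reads of any repeat among the named falls. LTR7Y, a young LTR of this family, was at 25.4 and 27.1 CPM in KO1, against 178.5, 96.85 and 101 CPM in WT1 (-2.25, SE 0.27, edgeR adjusted p = 0.0014). LTR7B had 13.4 and 16.4 CPM in KO1, against 63.9, 36.0 and 37.7 CPM in WT1 (-1.60, SE 0.26). KO1 lay below every WT1 library for these 3, and WT1 replicate 1 was the highest. Without WT1 replicate 1, HERVH-int was still lower (-1.58, edgeR adjusted p = 5.49e-07). The older LTR7 was at -0.23 (SE 0.09) and did not pass. Other falls were LTR49-int (-0.91), HERVIP10F-int (-1.18) and PRIMA4-int (-0.79), whose calls were lost without either KO1 library (edgeR adjusted p up to 0.0864).

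The rises among repeats were few and also retroviral. Harlequin-int was at 86.1 and 93.1 CPM in KO1, against 63.5, 45.3 and 43.3 CPM in WT1 (0.83, SE 0.15, edgeR adjusted p = 0.0101). HERVE_a-int (1.43, SE 0.23), LTR14C (1.97, SE 0.31), MER61-int (0.62, SE 0.13) and MER61A (0.65, SE 0.13) rose with it. Their calls were lost without either KO1 library (edgeR adjusted p up to 0.176). All 5 also lay above 0 in KO5 against WT7, from 1.25 for Harlequin-int to 3.39 for LTR14C. In that pair 951 of 1038 subfamilies tested lay above 0. Of 31 factors that silence repeats, 3 fell and 1 rose (12.9% called, near the 15.6% of all genes). APOBEC3C, a cytidine deaminase that restricts retroelements, was at 1.22 and 1.39 CPM in KO1, against 9.18, 17.6 and 19.4 CPM in WT1 (-3.56, SE 0.36), and ATF7IP, a partner of the methyltransferase SETDB1, fell by 0.65 (SE 0.08), a call lost without KO1 replicate 1 (edgeR adjusted p = 0.0527). Of these factors 6 fell and 2 rose without WT1 replicate 1, in a fit that called 27.2% of all genes.

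**Figure D4:**
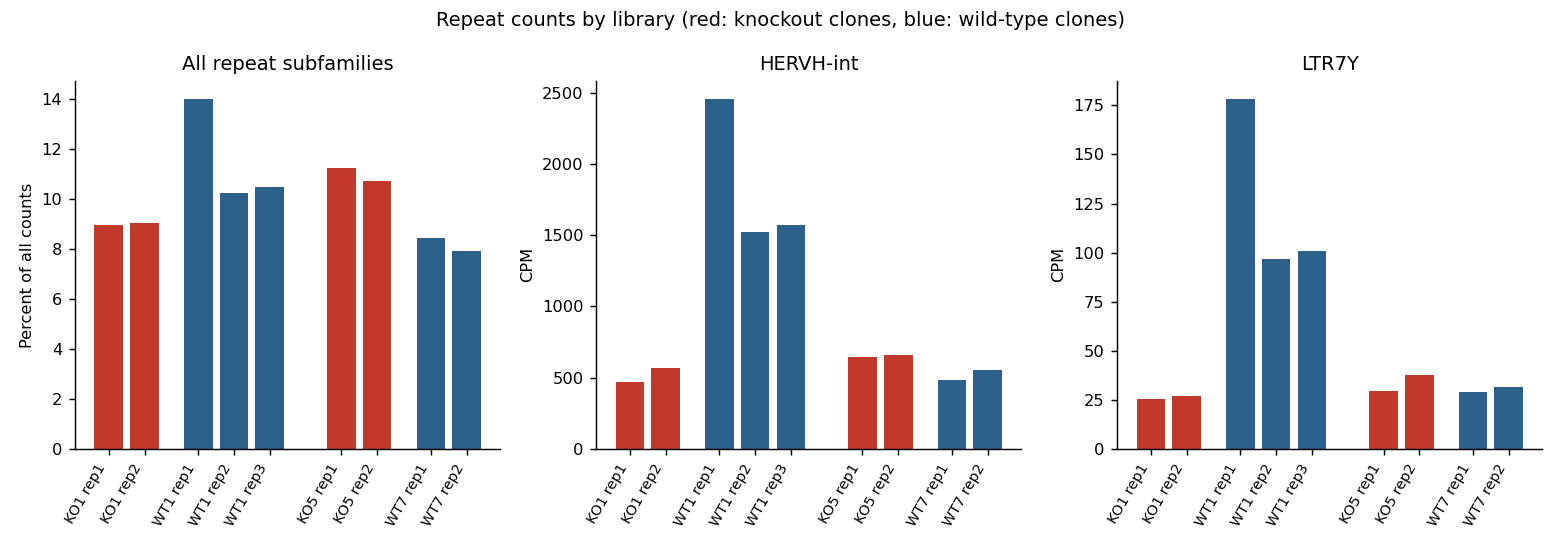
Share of all counts on repeat subfamilies (left), HERVH-int (middle) and LTR7Y (right) in each library, KO clones in red and WT clones in blue. In KO clone 1 all 3 values are below those of every WT clone 1 library, and the WT clone 7 libraries, at 483 and 556 CPM of HERVH-int, are near KO clone 1.

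The second clone pair shares no library with the comparison and carries its own clone differences. Of 17382 genes tested in both pairs, 1475 were called in the same direction (55.4% of the KO1 calls and 50.5% of the KO5 calls tested in both), and 21 in opposite directions. For KO5 against WT7, 16.8% of genes were called, 8.48% higher and 8.29% lower. The KO1 calls had the same sign in KO5 against WT7 for 91.1%, against 66.9% of all genes tested in both. Of the KO1 calls of at least 2-fold, 690 of 969 (71.2%) were called the same way. Across genes the log2 differences of the 2 pairs correlated at r = 0.756 (n = 17382) and across repeats at r = 0.375 (n = 1037), with genes and subfamilies not independent. A direct test of the difference between the pairs called 261 of 18869 genes (1.38%). KO1 over WT1 lay above KO5 over WT7 for 78 of them (0.413%) and below it for 183 (0.97%). The test called 83 of 1078 repeats (7.7%), all 83 lower in KO1 over WT1 than in KO5 over WT7. In KO5 against WT7 the interferon-stimulated list gave 8 rises and 4 falls among 30 tested. The NF-kB list gave 3 and 1 among 17, and the list of laminins, thrombospondins and other matrix genes 3 and 13 among 20. Of the genes named above, VCAM1, ISG15 and THBS2 were shifted alike in KO5 and were picked here after their values were seen. VCAM1 was at 13.9 and 15.5 CPM in KO5, against 1.02 and 0.622 CPM in WT7 (4.07, edgeR adjusted p = 8.05e-05), and ISG15 was at 17.2 and 19.3 CPM in KO5, against 6.77 and 5.23 CPM in WT7 (1.59, edgeR adjusted p = 0.000749). THBS2 was at 6.95 and 7.73 CPM in KO5, against 58.0 and 60.6 CPM in WT7 (-3.01, edgeR adjusted p = 2.14e-05). By contrast, CCND2 fell more in the first pair (difference -2.02), and BMP7 was at -2.18 for KO1 over WT1 and 0.26 for KO5 over WT7 (edgeR adjusted p = 0.208), a difference of -2.42.

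For repeats the pairs moved apart. In KO5 against WT7, 309 of 1038 subfamilies were called (29.8%), 306 higher (29.5%) and 3 lower (0.289%), with a median of 0.36, whereas in KO1 against WT1 the median was -0.44. HERVH-int was at 641 and 657 CPM in KO5, against 483 and 556 CPM in WT7 (0.32, edgeR adjusted p = 0.0495), and the difference between the pairs was -2.16. KO1, at 467 and 565 CPM, was thus near the levels of KO5 and WT7, and WT1 held the high values. The Alu family, primate SINEs of high copy number, had a median of -0.27 in KO1 against WT1, with 48 of 51 below 0. In KO5 against WT7 its median was 0.57, with 51 of 51 above 0. Over all repeats tested, 993 of 1067 lay below 0 in KO1 against WT1 and 951 of 1038 above 0 in KO5 against WT7. For KO1 against WT1 edgeR called 0 of the 51, and for KO5 against WT7 it called 42 higher; the effect differed between the pairs for 5. Repeat shares of all counts were 11.2% and 10.7% in KO5, against 8.44% and 7.90% in WT7.

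**Figure D5:**
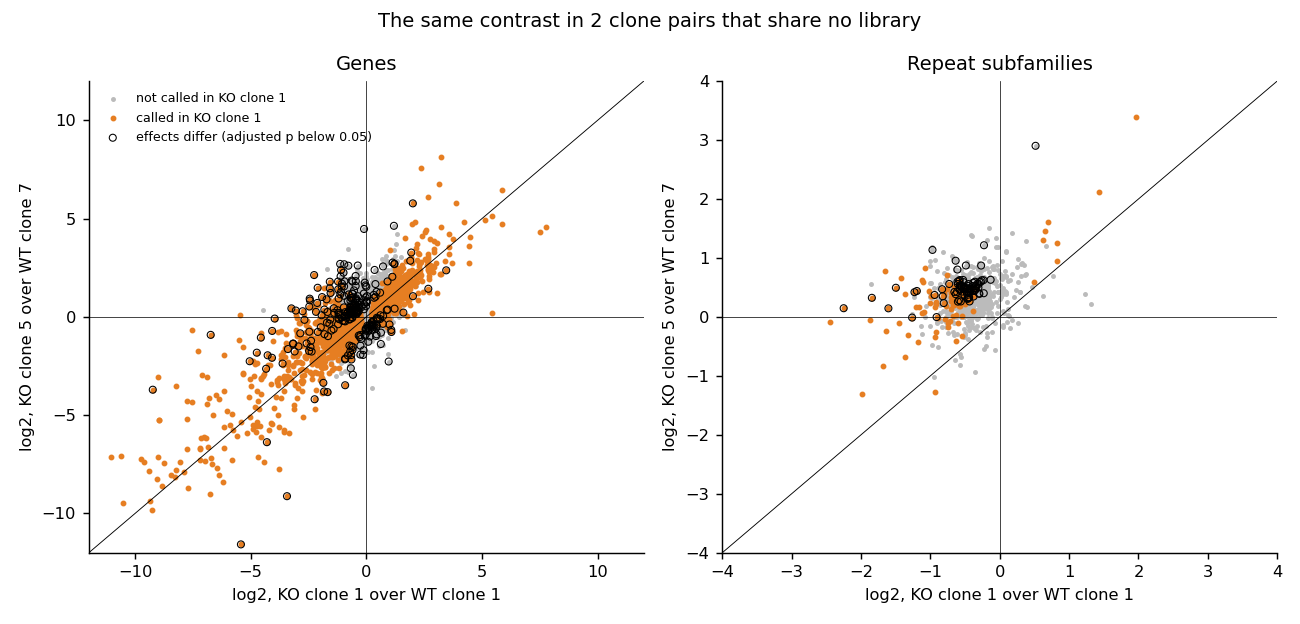
Log2 difference of KO clone 1 over WT clone 1 (horizontal) against KO clone 5 over WT clone 7 (vertical) for genes (left) and repeat subfamilies (right). Orange points were called in KO clone 1, black rings mark the 261 genes and 83 repeats whose effect differed between the pairs, and most repeats lie left of 0 and above 0.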

How the data were processed

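Deposited raw counts per gene and repeat subfamily were used. Per the submitters' processing notes the authors aligned reads to hg38 with STAR 2.5.2a and used DESeq and DESeq2 1.22.2; the sources used here do not give the strand setting, the annotation release or the use of UMIs. The smallest row total in the deposited counts was 37, so low rows had been removed. The 5 libraries were filtered with edgeR filterByExpr (minimum count 10), scaled by TMM and tested with the quasi-likelihood F test (edgeR 4.0.16, R 4.3.3), with Benjamini-Hochberg adjustment over all genes and repeats and a threshold of 0.05. KO5 against WT7 and the difference of effects were fitted the same way. CPM are per 1e+06 counts after TMM scaling over 9 libraries, values in brackets are log2 differences, and SE is their standard error. Bounds use 3 pooled counts. Positions are from GENCODE release 44 and promoters from RefSeq. Alternatives were other scalings, filters, dispersion estimates, DESeq2 1.42.0, a replicate block, a 4-group fit and leaving out each library. Named genes were MATR3, SNHG4, the 10 largest changes each way with mean CPM of at least 1 and libraries that do not overlap, the 5 most abundant changes each way of at least 2-fold, up to 4 members of each list by p, 5 repeats each way, and 5 genes each way whose effect differs between pairs. On simulated data for KO1 against WT1 (19260 features), 82% of features changed 2-fold and 53% of those changed 1.5-fold were recovered. Of 147 calls 12 were false. The simulation had few changed features and no outlying library, so it does not cover a library such as WT1 replicate 1. The members and lists were chosen with earlier results of these data known.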

Additional observations from a re-analysis of the deposited data

Results flagged for a closer look

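The effect, defined above as KO over WT whatever its cause, differed between the clone pairs for 261 genes and 83 repeat subfamilies. This is by a direct edgeR test of the difference. A positive difference means that KO1 over WT1 lies above KO5 over WT7, and not that a gene rose in KO1. Of the genes below, OLFM3, PARM1 and CAPN6 did not pass in KO1 against WT1 (edgeR adjusted p = 0.057, 0.0834 and 0.931). HMGCS1 and MYB were called higher there, and the other genes and repeats named below were called lower.

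The difference was positive for PPP2R2B, a regulatory subunit of protein phosphatase 2A (6.27), the receptor gene ERBB4 (5.81), the olfactomedin gene OLFM3 (3.24), the adhesion receptor gene ADGRL3 (2.57) and PARM1 (2.37). PPP2R2B was at 0.348 and 0.231 CPM in KO1, against 10.5, 12.6 and 12.4 CPM in WT1, and at 0 in both KO5 libraries, against 16.97 and 18.6 CPM in WT7. ERBB4 was also at 0 in both KO5 libraries, against 3.40 and 3.05 CPM in WT7, and SLC19A3 was at 0 in both KO1 libraries. With 0 or 1 counts in a knockout clone, as also for ST8SIA4, the size of these 4 differences depends on the prior count. The difference was also positive for EFNB2, an ephrin ligand (1.50), CDH2 (0.96) and HMGCS1, an enzyme of cholesterol synthesis (0.53).

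It was negative for the sialyltransferase gene ST8SIA4 (-5.80), the thiamine transporter gene SLC19A3 (-5.44), CAPN6 (-4.57), TMEM200A (-4.37) and the tetraspanin gene TSPAN7 (-3.88). It was also negative for BMP7 (-2.42), CCND2 (-2.02), CNTNAP2 (-1.80), the receptor gene KIT (-1.24), ITGA9 (-0.90), MYB on the chromosome 6 stretch (-0.88), FBN2 (-0.81) and the metabolic kinase gene PDK1 (-0.77). Among repeats it was negative for LTR7Y (-2.39), HERVH-int (-2.16) and LTR49-int (-0.90). CCND2 and BMP7 were called in all 9 fits that left out 1 library, ADGRL3 and CDH2 in 8, TMEM200A in 7, PARM1 in 6 and the rest in 1 to 4. Whether the clones of a genotype differ for reasons other than MATR3 was not tested.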

How the results depend on the processing

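Over 13 alternatives, 0 of the 136 named calls reversed, and MATR3 stayed called with log2 differences of -2.41 to -2.28. With DESeq2 size factors, TMM factors from genes alone, no filter, the 4-group fit and the DESeq2 test 136 of 136 kept their call, and robust dispersion lost 3. Without KO1 replicate 1 or replicate 2, 59 and 66 calls were lost, and without WT1 replicate 2 or 3, 14 and 19. A fit left with 1 KO1 library assumes that it varies like WT1.

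Leaving out 1 library gave 626 to 5083 genes called (274 to 2469 higher, 352 to 2614 lower), 2 to 425 repeats (2 to 403 lower), 554 to 1921 calls shared with KO5 against WT7, 5 to 847 genes and 0 to 446 repeats whose effect differs, and 1908 to 3174 genes for KO5 against WT7. The 4-group fit called 272 repeats (263 lower) and DESeq2 257 (251 lower). A minimum count of 50 gave 209 repeats whose effect differs. The cause of these shifts was not tested.

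With the replicate block, 2749 genes and 466 repeats (457 lower) were called in KO1 against WT1, 7535 genes in KO5 against WT7, and 581 genes and 517 repeats for the difference, and 11 named calls were lost. The labels share 2 replicate numbers between KO1 and WT1, and deviations of same-numbered libraries correlated at 0.0818 and 0.0929. With 2 KO1 libraries their deviations mirror each other, so these values cannot decide whether the numbers pair the libraries. The main fit used no pairing, and the check was not made for KO5 and WT7. No limit of detection at low counts was measured.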

Other observations

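For several other processes the share of members called was near the 15.6% of all genes in KO1 against WT1. Of 25 cholesterol synthesis genes (16% called) 3 rose, among them HMGCS1, at 238 and 235 CPM in KO1, against 152, 154 and 159 CPM in WT1 (0.61, SE 0.07), and 1 rose without KO1 replicate 1, KO1 replicate 2, WT1 replicate 2 or WT1 replicate 3. Of 26 genes of the integrated stress response (15.4% called) 3 fell and 1 rose, led by the cystine transporter gene SLC7A11 (-0.60, SE 0.09). Of 29 glycolysis and hypoxia genes (13.8% called) 2 rose and 2 fell, and of 19 NRF2 antioxidant genes (15.8% called) 2 rose, GCLC and NFE2L2, and 1 fell. Calls were lost without KO1 replicate 1 for SLC7A11 (edgeR adjusted p = 0.0643) and without KO1 replicate 2 for GCLC (0.0549) and NFE2L2 (0.0887). Without WT1 replicate 1 there were 6 rises and 3 falls for cholesterol synthesis, 3 and 10 for the integrated stress response, 5 and 2 for glycolysis and hypoxia, and 5 and 2 for NRF2 genes, in a fit that called 27.2% of all genes.

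Of 43 splicing regulators (16.3% called) 3 rose and 4 fell, among them RBM20, a splicing factor of heart muscle, which had 0 counts in both KO1 libraries, against 1.17, 3.78 and 2.51 CPM in WT1, a call lost without KO1 replicate 2 (edgeR adjusted p = 0.0722). One of the 3 rises, QKI, lies on the chromosome 6 stretch. Of 15 paraspeckle proteins and nuclear non-coding RNAs 0 passed by edgeR, 0 had an unadjusted p below 0.05 and 0 were called by DESeq2, while 2 were called higher without WT1 replicate 1. Of 15 CTCF and cohesin genes 2 fell (13.3% called), and of 16 genes of the nuclear lamina (12.5% called) SYNE1, on the chromosome 6 stretch, rose and SYNE2 fell. SYNE2 lost its call without KO1 replicate 1, KO1 replicate 2, WT1 replicate 2 or WT1 replicate 3 and with the replicate block (edgeR adjusted p up to 0.241), and SYNE1 without KO1 replicate 1 (0.0574). The 13 respiratory chain genes encoded in mitochondria had a median of -0.39, with 0 called by edgeR, 2 at an unadjusted p below 0.05 and 1 called by DESeq2. Without WT1 replicate 1, 10 were called lower, among them CYTB (-0.78, edgeR adjusted p = 0.0012), COX1 (-0.64, edgeR adjusted p = 0.00313), COX2 (-0.68, edgeR adjusted p = 0.00728) and ND5 (-0.64, edgeR adjusted p = 0.00785), subunits of the respiratory chain. The share of counts on them was 1.64% and 2.46% in KO1, against 1.85%, 3.13% and 3.04% in WT1. Of 12 haematopoietic genes 4 fell (33.3% against 8.78% of all genes), among them KIT, at 0.813 and 0.635 CPM in KO1, against 8.93, 8.47 and 8.64 CPM in WT1 (-3.62, SE 0.19), and MYB, on the chromosome 6 stretch where 66% of genes were called higher, was the member that rose (0.92, SE 0.09).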
